A study of Mus musculus with 8 samples.

Results

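Potassium channel genes were examined in 6 peak lists from Beta-TC6 cells, which derive from a mouse insulinoma, secrete insulin and stand in for pancreatic beta cells. The genes were the RefSeq protein-coding genes of the mouse genome (mm10, annotation GRCm38.p6) whose symbols start with Kcn, without Kcnj11 and 1 gene of the Kcnq subfamily. This gave 92 of 21887 protein-coding genes. Chromatin immunoprecipitation sequencing (ChIP-seq) had been carried out for the circadian clock factors BMAL1 and CLOCK, for the homeodomain factor PDX1, for the histone modifications H3K4me2 and H3K27ac, and for the histone variant H2A.Z. All 6 came from unmodified Beta-TC6 cells of low passage, obtained from ATCC, grown to confluence and fixed with DSG, a protein crosslinker, followed by formaldehyde. No treatment, genotype or time point was compared. BMAL1 and CLOCK were precipitated with affinity-purified guinea pig antibodies and the other targets with commercial ones. Peaks were called against 1 of 2 pooled inputs. Each target had 1 library, so no value has a replicate error and no comparison could be tested between samples. Genes and peaks are not replicates, and the 95% intervals given on shares (Wilson) and densities (exact Poisson) cover counting error only.

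Potassium channels let potassium ions leave the cell and so pull the membrane potential down. In the beta cell, closure of ATP-sensitive potassium channels at high glucose depolarises the membrane and opens calcium channels, and voltage-gated and calcium-activated potassium channels then repolarise it and limit insulin release. Voltage-gated pore subunits (Kcna, Kcnb, Kcnc, Kcnd, Kcnh, Kcnq) open on depolarisation. Silent modifier subunits (Kcnf, Kcng, Kcns, Kcnv) form channels only together with such pores. Inward rectifiers (Kcnj) and two-pore channels (Kcnk) act near the resting potential. The class called calcium- or sodium-activated here (Kcnma, Kcnn, Kcnt, Kcnu) was set by symbol, and its channels respond to intracellular ions. Auxiliary or regulatory proteins (Kcnab, Kcne, Kcnip, Kcnmb, Kcnrg) alter the gating, assembly or surface level of the pores. H3K4me2 marks promoters and enhancers, H3K27ac marks those that are active, and H2A.Z replaces H2A near gene starts and regulatory elements. BMAL1 and CLOCK bind E-box DNA as a pair, and PDX1 is a central regulator of beta-cell genes.

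The libraries held between 12892080 tags (BMAL1) and 26678241 tags (H3K4me2), and the lists held 41140 peaks of H3K4me2, 34883 of PDX1, 29735 of H3K27ac, 26455 of H2A.Z, 4125 of BMAL1 and 1378 of CLOCK. A site below the calling threshold, 13 tags for the 3 factors, does not enter a list, so a gene without a peak had none detectable at this depth. Tags in peaks made up 37.2% of the H3K27ac library, 4.32% of the PDX1 library, 0.48% of the BMAL1 library and 0.16% of the CLOCK library. All 10 beta-cell marker genes examined (among them Ins1, Ins2, Pdx1, Mafa and Slc2a2) had H3K27ac within 20 kb, with 9684 to 34931 bp of marked sequence per gene. Markers of other cell types had less: 0 of 2 delta-cell genes, 1 of 3 acinar genes and 2 of 3 alpha-cell genes had H3K27ac, as did 1 of 2 genes each for duct, immune, endothelial and fibroblast cells, and none of these genes exceeded 5939 bp. Over all genes the share with H3K27ac was 63.1%. H3K4me2 was found at all of these marker genes except the acinar ones (0 of 3). PDX1 was found at all 10 beta-cell genes, 3 of 3 alpha-cell genes and 2 of 2 each for duct, immune and endothelial cells. It was found at 1 of 2 delta-cell, 1 of 3 acinar and 1 of 2 fibroblast genes. Every library was made from Beta-TC6 cells, so these values describe such marker genes in that line. They do not show that other cell types were present, which was not tested.

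A gene was counted as having a peak when the centre of a peak lay inside its span or within 20 kb of it. PDX1 peaks were found at 50 of the 92 potassium channel genes (54.3%, interval 44.2 to 64.1), and PDX1 peaks were found in the same way at 41.2% of all protein-coding genes. BMAL1 was found at 19 channel genes (20.7%, interval 13.6 to 30.0, against 14.0% of all genes) and CLOCK at 10 (10.9%, interval 6.01 to 18.9, against 8.23%). H3K4me2 was found at 85 channel genes (92.4%, interval 85.1 to 96.3, against 74.8%), H3K27ac at 61 (66.3%, interval 56.2 to 75.1, against 63.1%) and H2A.Z at 65 (70.7%, interval 60.7 to 79.0, against 60.5%). Channel genes are long, with a median span of 32.7 kb against 17.2 kb over all genes, and a longer gene offers a wider window. Per megabase of window the channel genes held 16.7 PDX1 peaks (interval 14.6 to 19.0) against 13.4 over all genes, 2.22 BMAL1 peaks against 1.85 and 1.08 CLOCK peaks against 0.772. Without Kcnip4, the gene with the most PDX1 peaks, the PDX1 density was 14.7 (interval 12.7 to 17.0), which includes the value over all genes. The intervals of the BMAL1 and CLOCK densities, 1.51 to 3.16 and 0.602 to 1.77, do so as well, with all 92 genes. For H3K4me2, H3K27ac and H2A.Z the densities of the channel genes, 20.6, 15.4 and 11.3 per megabase, lay at or below those of all genes, 22.5, 16.4 and 11.6.

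**Figure D1:**
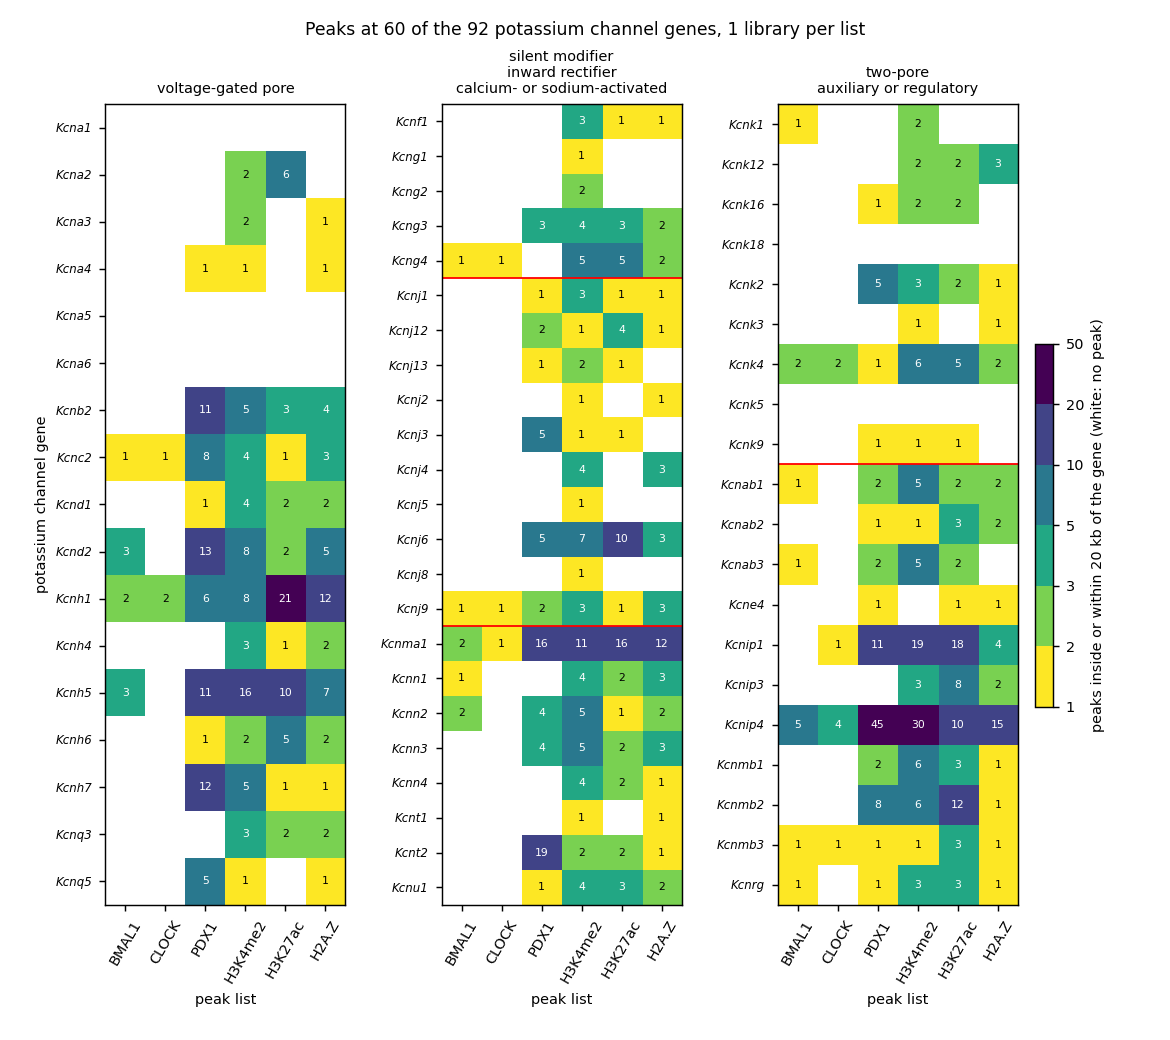
Number of peaks of each list (columns) whose centre lies inside or within 20 kb of each of the 60 potassium channel genes named in the text (rows, grouped by class). White cells hold no peak; Kcnip4 has the most PDX1 peaks (45) and Kcnh1 the most H3K27ac intervals (21).

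The channel genes were also set beside other genes of like length. Of the 22 channel genes over 100 kb, 21 had a PDX1 peak (95.5%), as did 85.9% of all genes of that length, and the exception was Kcnq3. Of the 35 channel genes of 20 to 100 kb, 17 had PDX1 (48.6% against 50.0%), and of the 35 under 20 kb, 12 had PDX1 (34.3% against 26.4%). Of those under 20 kb, 31 had H3K4me2 (88.6% against 64.6%), at a density of 44.9 intervals per megabase (interval 35.5 to 56.0) against 29.7 for all genes of that length. The H3K4me2 density went the other way in the channel genes of 20 to 100 kb, at 21.7 (interval 16.8 to 27.6) against 28.6, and was 16.3 (interval 13.8 to 19.2) against 17.9 in those over 100 kb. Across the 92 genes the number of PDX1 peaks followed the span (Spearman's rho 0.59; 0.46 over all genes), which is a description over genes that share 1 library.

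The promoters of the channel genes carried H3K4me2 more often than H3K27ac and none of the 3 factors. RefSeq promoters (250 bases before to 50 bases after a transcription start, GRCm38.p6) were matched for 69 of the 92 genes, 94 windows in all. H3K4me2 overlapped a promoter of 40 of these 69 genes (58.0%, interval 46.2 to 68.9, against 45.3% of the 17492 genes in the promoter table). H3K27ac overlapped a promoter of 12 (17.4%, interval 10.2 to 28.0, against 37.6%), and H2A.Z of 17 (24.6%, interval 16.0 to 36.0, against 21.7%). Thus 30 channel genes had H3K4me2 without H3K27ac on their promoters (43.5%, interval 32.4 to 55.2), a state found at 17.5% of all genes. The H3K4me2 library held 26678241 tags and the H3K27ac library 13430083, and the part of this difference in depth was not tested. A further 10 had both marks (14.5% against 27.8%), 2 had H3K27ac alone (2.9% against 9.83%) and 27 had neither (39.1% against 44.9%). H2A.Z lay on the promoters of 10 of the 30 genes with H3K4me2 alone (33.3%, against 41.0% of all genes in that state). It also lay on 6 of the 12 with H3K27ac and on 1 of the 27 with neither, Kcnma1, where the shares over all genes were not determined. BMAL1, CLOCK and PDX1 overlapped 0 of the 69 genes' promoters, where the shares over all genes were 1.18%, 1.64% and 0.875%. Each count of 0 of 69 has an upper Wilson limit of 5.27%. Within 1 kb of a start PDX1 was found at 3 channel genes (4.35%, interval 1.49 to 12.0, against 3.09% of all genes): Kcnj13, which encodes an inward rectifier (score 43, 762 bp from the start), Kcnip1 (score 14, 602 bp) and Kcnk2 (score 14, 469 bp, the 1 peak of the 3 in H3K27ac).

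**Figure D2:**
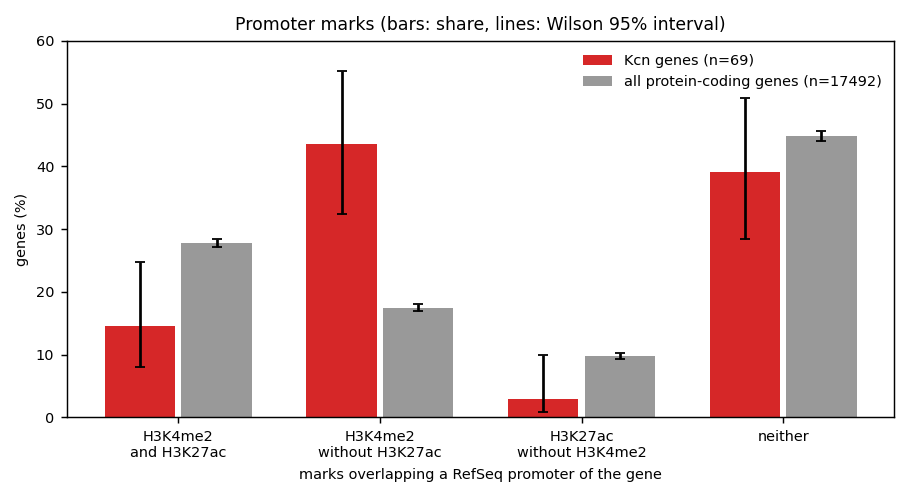
Share of genes (vertical axis, percent) whose RefSeq promoters overlap H3K4me2, H3K27ac, both or neither, for 69 potassium channel genes (red) and 17492 protein-coding genes (grey), with Wilson 95% intervals. The channel genes are at 43.5% for H3K4me2 without H3K27ac, against 17.5% of all genes.

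The 12 genes with an acetylated promoter were spread over 4 classes. A gene counted when H3K27ac overlapped any of its RefSeq promoters, and Kcnab2, Kcnip1, Kcnip3, Kcnip4, Kcnj6 and Kcnk2 also had promoters without it. They were the voltage-gated pores Kcna2, Kcnh5 and Kcnh6, the inward rectifier Kcnj6, the two-pore channels Kcnk2, Kcnk12 and Kcnk16, and the auxiliary genes Kcnab2, Kcnip1, Kcnip3, Kcnip4 and Kcnmb2. None of the 5 silent modifiers and none of the 5 calcium- or sodium-activated channels in the promoter table was among them. The sequences below are the 250 bases before the start, 5′ to 3′ on the strand of the gene, of 4 of the acetylated promoters, from genes that also had PDX1 in an H3K27ac interval within 20 kb (RefSeq, GRCm38.p6). They were searched on both strands for the E-box CACGTG and for TAATTA, a core bound by homeodomain factors such as PDX1. No base is in capitals because neither motif occurs in them.
Kcnk16, chr14:20269270-20269519, minus strand: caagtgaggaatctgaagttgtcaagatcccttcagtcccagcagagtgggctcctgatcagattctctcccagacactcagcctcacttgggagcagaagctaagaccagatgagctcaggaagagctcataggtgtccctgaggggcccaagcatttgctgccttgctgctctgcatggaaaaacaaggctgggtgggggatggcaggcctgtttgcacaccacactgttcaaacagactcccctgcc
Kcnh6, chr11:106007898-106008147, plus strand: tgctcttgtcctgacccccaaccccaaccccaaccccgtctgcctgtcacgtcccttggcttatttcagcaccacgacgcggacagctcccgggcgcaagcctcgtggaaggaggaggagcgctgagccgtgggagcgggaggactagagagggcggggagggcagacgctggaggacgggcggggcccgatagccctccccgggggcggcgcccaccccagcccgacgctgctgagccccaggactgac
Kcnmb2, chr3:31902453-31902702, plus strand: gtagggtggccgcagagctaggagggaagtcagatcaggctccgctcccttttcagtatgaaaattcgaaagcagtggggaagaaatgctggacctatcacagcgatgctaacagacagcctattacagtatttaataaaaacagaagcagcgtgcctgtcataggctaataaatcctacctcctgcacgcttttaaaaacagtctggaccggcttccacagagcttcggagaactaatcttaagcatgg
Kcnip1, chr11:33993194-33993443, minus strand: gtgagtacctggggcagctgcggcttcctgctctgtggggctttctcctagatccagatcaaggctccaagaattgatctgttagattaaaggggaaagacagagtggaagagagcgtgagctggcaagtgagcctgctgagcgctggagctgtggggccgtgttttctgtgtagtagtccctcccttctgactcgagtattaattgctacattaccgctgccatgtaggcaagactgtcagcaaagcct

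The Kcnk16 promoter, of a two-pore channel known from pancreatic islets, lay in an H3K27ac interval of 2751 bp with 352.9 normalized tags (rank 2499 of 29735 by tags). The PDX1 peak near this gene (score 38) was 7026 bp before the start, in a second H3K27ac interval of 2460 bp. The Kcnh6 promoter, of a channel of the ether-a-go-go family, lay in the interval with the most tags at any channel gene, 14182 bp long with 1603.9 normalized tags (rank 93). A PDX1 peak of score 14 lay in the same interval. The Kcnmb2 promoter, of a subunit of the large-conductance calcium-activated (BK) channel, lay in an interval of 3433 bp with 248.0 tags that held a PDX1 peak of score 20, 2385 bp after the start. The Kcnip1 promoter, of a calcium-binding partner of Kcnd channels, lay in an interval of 5192 bp with 470.6 tags and no PDX1 peak.

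The E-box CACGTG was found in 7 of the 94 channel promoter windows (7.45%), against 7.84% of all 21263 windows, and TAATTA in 0 of 94 against 4.53%. The 7 windows belonged to Kcne4, Kcnab1, Kcnn4, Kcnh4, Kcnj2 and Kcnk5. No BMAL1 or CLOCK peak overlapped any of them. The pair below, shown because they hold an E-box with no clock factor peak, come from Kcnj2, a classical inward rectifier, and Kcnn4, the intermediate-conductance calcium-activated channel. Capitals mark the E-box, which starts 84 bases before the start in Kcnj2 and 133 bases before it in Kcnn4.
Kcnj2, chr11:111065914-111066163, plus strand: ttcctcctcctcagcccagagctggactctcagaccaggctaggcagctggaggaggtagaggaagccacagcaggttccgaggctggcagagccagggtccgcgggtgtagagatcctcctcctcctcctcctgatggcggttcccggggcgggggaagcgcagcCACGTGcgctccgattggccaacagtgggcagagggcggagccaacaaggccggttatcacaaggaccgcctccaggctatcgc
Kcnn4, chr7:24370013-24370262, plus strand: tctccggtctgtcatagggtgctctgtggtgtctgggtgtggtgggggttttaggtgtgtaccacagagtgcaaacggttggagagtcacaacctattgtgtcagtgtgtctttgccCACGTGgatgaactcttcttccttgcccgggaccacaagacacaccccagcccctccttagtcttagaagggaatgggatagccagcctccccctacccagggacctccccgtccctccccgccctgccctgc

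The Kcnj2 promoter carried H3K4me2 and H2A.Z and the Kcnn4 promoter none of the 3 chromatin marks. Over all genes the 250 bases held the E-box in 34.7% of the 441 windows that overlapped BMAL1 or CLOCK and in 6.04% of the 20822 that overlapped neither.

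BMAL1 and CLOCK peaks overlapped at 4 places near 3 channel genes, and none of those places was inside a channel gene. The 19 genes with BMAL1 had 31 peaks, and 4 of these overlapped a CLOCK peak (12.9%, interval 5.13 to 28.9, against 8.56% of BMAL1 peaks in the windows of all genes), near Kcnj9, near Kcng4 and, in 2 places, near Kcnk4. All 4 overlapped H3K27ac, and their BMAL1 scores, HOMER's tag-based score within a list, ran from 16 to 54. The other 27 BMAL1 peaks had a median score of 13, the calling threshold, and a highest score of 19. Of these 27, 1 overlapped H3K27ac and 20 lay inside a channel gene, those 20 at a median of 91289 bp from the nearest end of any protein-coding gene. Low scores were common in the BMAL1 list as a whole. Scores of 13 or 14 made up 58.1% of the 31 peaks, against 65.3% in the windows of all genes. H3K27ac overlapped 16.1% of the 31, against 23.1% in those windows. In all, BMAL1 in H3K27ac was found at 4 channel genes (4.35% against 4.92% of all genes) and CLOCK in H3K27ac at 9 (9.78% against 5.72%). Of the 15 CLOCK peaks 10 overlapped H3K27ac (66.7%, interval 41.7 to 84.8), close to the 64.6% of CLOCK peaks in the windows of all genes.

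The strongest clock site lay near Kcnj9, which encodes a subunit of G-protein-gated inward rectifiers. The BMAL1 peak at chr1:172309981-172310311 had a score of 54 and the CLOCK peak at chr1:172310085-172310289 a score of 82, with centres 41 bp apart. Both lay 19135 to 19176 bp from the Kcnj9 start and only 2180 to 2221 bp from that of Igsf8, a membrane protein of the immunoglobulin superfamily. The H3K27ac interval under them was 3557 bp long with 427.4 tags (rank 1797) and also held PDX1 peaks of scores 13 and 15, each 505 bp from the nearer clock peak by their centres. The Kcnj9 promoter itself carried none of the 3 chromatin marks.

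Kcnk4, a mechanosensitive two-pore channel of 9.222 kb in a gene-dense region of chromosome 19, had 2 clock sites outside its span. At 1 of them BMAL1 scored 34 and CLOCK 14, inside Gpr137 and 177 bp (CLOCK centre) from the start of Bad, a regulator of apoptosis. At the other BMAL1 scored 16 and CLOCK 17, 44 bp (CLOCK centre) from the end of Catsperz and 574 bp from the start of Esrra, a nuclear receptor. The site near Kcng4, a silent modifier, had scores of 20 for BMAL1 and 29 for CLOCK and lay 18758 to 18906 bp outside the gene. It sat at the start of Taf1c, a factor of RNA polymerase I transcription. So 3 of the 4 shared sites were within 1 kb of an end of another gene, and the Taf1c promoter, overlapped by CLOCK, H3K4me2, H3K27ac and H2A.Z, is printed in the same way as the channel promoters. The CLOCK peak, chr8:119604994-119605198, overlapped only the part of the promoter window after the start, which is not printed. The 250 printed bases hold no base of the CLOCK or BMAL1 peak, and no CACGTG or TAATTA.
Taf1c, chr8:119605207-119605456, minus strand: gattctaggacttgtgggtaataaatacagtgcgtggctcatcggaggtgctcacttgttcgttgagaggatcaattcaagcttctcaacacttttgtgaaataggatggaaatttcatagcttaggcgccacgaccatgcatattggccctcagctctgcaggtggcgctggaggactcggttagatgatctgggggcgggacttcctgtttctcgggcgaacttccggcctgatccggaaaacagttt

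**Figure D3:**
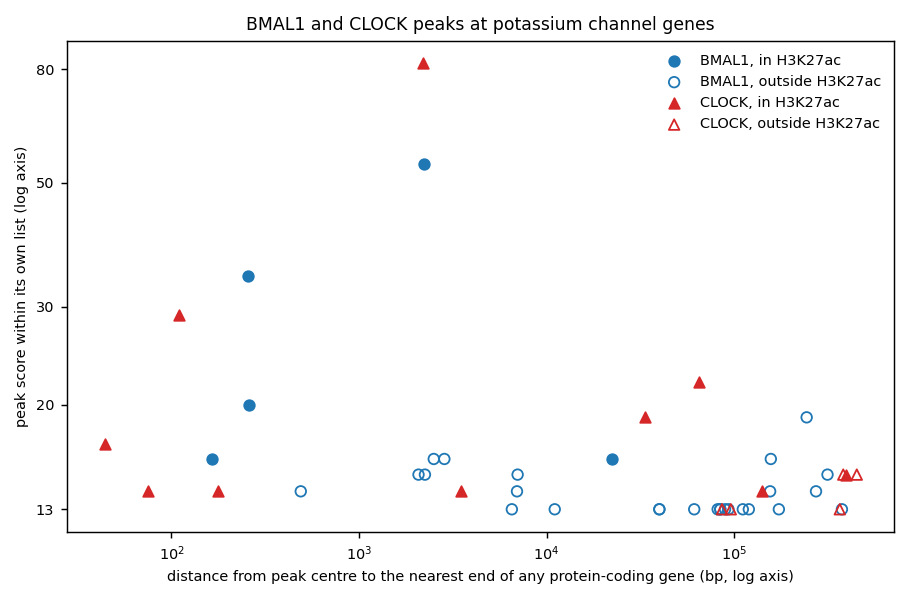
Score (vertical, log axis) of each BMAL1 peak (circles, 31) and CLOCK peak (triangles, 15) at the potassium channel genes against the distance of its centre from the nearest end of any protein-coding gene (horizontal, bp, log axis), with filled symbols in H3K27ac. The BMAL1 peaks over 100 kb from a gene end are open symbols with scores of 13 to 19, and the filled symbols above a score of 30 lie within 2221 bp of a gene end.

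CLOCK without BMAL1 was found in H3K27ac at 6 channel genes. In 3 of them it overlapped a PDX1 peak deep inside the gene. These were 3 of the 15 CLOCK peaks (20%, interval 7.05 to 45.2), near the 15.1% of CLOCK peaks that overlapped PDX1 in the windows of all genes. In Kcnh1, a voltage-gated pore of the ether-a-go-go family, CLOCK scored 19 and PDX1 75 with centres 34 bp apart, in an H3K27ac interval of 5710 bp with 900.2 tags (rank 391), 286076 bp from the gene's start. In Kcnc2, a fast voltage-gated pore, the scores were 22 and 52 and the centres 39 bp apart, in an interval of 3874 bp with 492.2 tags. In Kcnip1 they were 14 and 47 with centres 141 bp apart, in an interval of 3364 bp with 159.3 tags. At Kcnip4 the CLOCK peak (score 15) and a PDX1 peak (score 140) shared an H3K27ac interval of 2058 bp but their centres were 371 bp apart and the peaks did not overlap. Near Kcnmb3 a CLOCK peak of score 14 lay 75 bp from an end of the zinc finger gene Zfp639. None of the 31 BMAL1 peaks overlapped PDX1 (0%, upper limit 11.0%), against 4.62% of BMAL1 peaks in the windows of all genes. Kcnh5 had a BMAL1 peak of score 16 and a PDX1 peak of score 40 in the same H3K27ac interval, with centres 414 bp apart.

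PDX1 was the most frequent factor at these genes, and its peaks lay mostly inside the genes and outside H3K27ac. The channel genes held 233 distinct PDX1 peaks, of which 196 (84.1%) were inside a channel gene. The gene spans make up most of these windows. The PDX1 density was 18.9 per megabase over the spans alone, against 16.7 over the whole windows. In the other lists the share inside ran from 59.9% (H2A.Z) to 69.8% (H3K27ac). H3K27ac overlapped 44 of the 233 (18.9%), against 26.1% of the PDX1 peaks in the windows of all genes. Those 44 had a median score of 28 and the other 189 a median of 18, and over the whole PDX1 list the medians were 26 and 18. Scores of 30 or more were reached by 47.7% of the 44 and by 18.5% of the 189, and H3K4me2 overlapped 77.3% and 14.3%. PDX1 in H3K27ac was found at 22 channel genes (23.9% against 18.0% of all genes), and a further 28 had PDX1 only outside H3K27ac. Beside all genes of like length, the share in H3K27ac was 50.0% against 49.1% over 100 kb. It was 17.1% against 20.3% at 20 to 100 kb and 14.3% against 10.2% under 20 kb. Counting the 3 factors together, 26 channel genes had at least 1 of them in H3K27ac (28.3% against 23.2%, not matched for length).

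**Figure D4:**
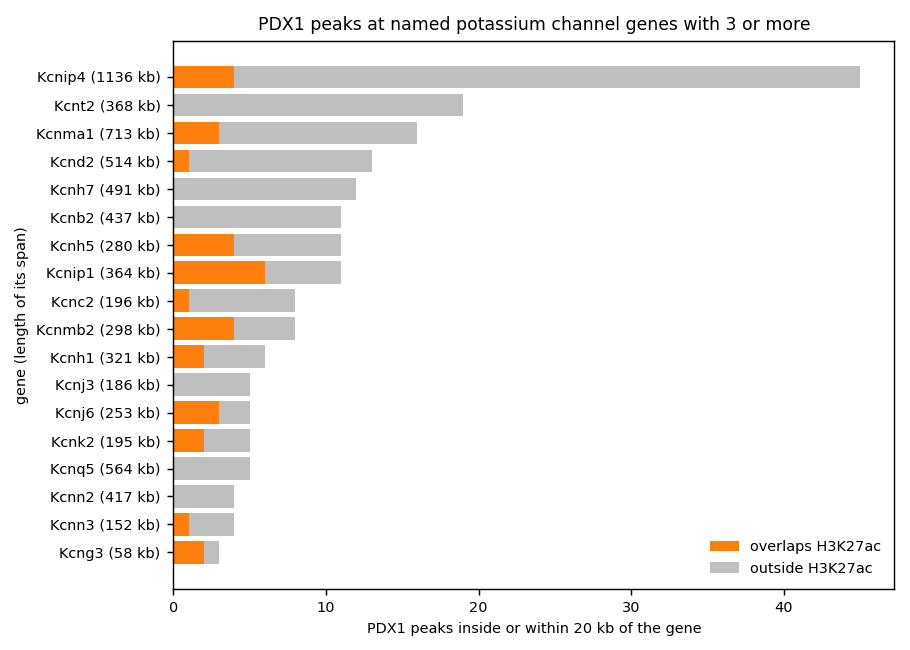
PDX1 peaks inside or within 20 kb of each potassium channel gene named in the text that has at least 3 (horizontal axis, number of peaks), with the part that overlaps H3K27ac in orange and the length of each gene beside its name. Kcnip4 has 45 peaks with 4 in H3K27ac, Kcnt2 has 19 with 0, and Kcnip1 has 11 with 6.

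Kcnip4, which encodes a calcium-binding partner of Kcnd channels and spans 1135.62 kb, had 45 PDX1 peaks with scores from 13 to 140 (median 20), 4 of them in H3K27ac. The peak of score 140 was the highest PDX1 score at any channel gene. The next of these 4 (score 79) lay in an interval of 4390 bp with 903.2 tags (rank 387), 25403 bp from a Kcnip4 start. Kcnma1, the pore of the BK channel, had 16 PDX1 peaks (13 to 116, median 18), and its strongest peaks, of scores 116 and 74, were outside H3K27ac, while the 3 inside it scored 15 to 27. Kcnmb2 had 8 PDX1 peaks (13 to 89), 4 of them in H3K27ac, including those of scores 89 and 54. Kcnip1 had 11, 6 of them in H3K27ac with scores from 13 to 68. The peak of score 68 lay 1186 bp outside Kcnmb1, another BK subunit whose gene lies within Kcnip1, and it counted for both genes.

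Among voltage-gated pores with PDX1 in H3K27ac, Kcnh5 had 4 such peaks of 11, with scores from 17 to 40. Kcnh1 had 2 of 6 (scores 20 and 75), and Kcnd2, a pore of transient outward current, had 1 of 13 (score 43). Kcnc2 had 1 of 8, and the single PDX1 peaks of Kcnd1 (score 18) and Kcnh6 (14) both overlapped H3K27ac. Of the inward rectifiers, Kcnj6, a G-protein-gated channel, had 3 of 5 (scores 13 to 42). Kcnj12 had 2 of 2 (18 and 42), Kcnj1 1 of 1 (37) and Kcnj9 the weak pair described above. The two-pore channel Kcnk2 had 2 of 5 (best score 21) and Kcnk16 1 of 1. Kcnn3, a small-conductance calcium-activated channel, had 1 of 4 (score 26) and Kcnu1, a sperm channel, 1 of 1 (41). Further genes were the silent modifier Kcng3 with 2 of 3 (scores 15 and 20) and the auxiliary gene Kcnab3 with 1 of 2 (46), the latter 14772 bp away inside Cntrob.

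Other genes with many or strong PDX1 peaks had none in H3K27ac. Most PDX1 peaks in the windows of all genes also lay outside H3K27ac, which overlapped 26.1% of them. Of the 15 genes with at least 5 PDX1 peaks, 5 had 0 in H3K27ac, and the same share over all genes with as many peaks was not determined. Kcnt2, a sodium-activated channel, had 19 peaks (scores 13 to 37, median 18), Kcnh7 had 12 (13 to 60), Kcnb2 had 11 (13 to 94), and Kcnj3 and Kcnq5 had 5 each. The single PDX1 peak near Kcnk9, an acid-sensitive two-pore channel, scored 107 and lay 6735 bp outside the gene with no H3K27ac overlap. Kcnb2, a delayed rectifier pore that spans 436.827 kb, had 3 H3K27ac intervals (2325 bp) beside its PDX1 peaks.

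By class, the auxiliary or regulatory genes had PDX1 most often (13 of 17, 76.5%, against 41.2% of all genes). They also had the highest density, 24.2 peaks per megabase (interval 19.1 to 30.2). Without Kcnip4 the density of the class was 16.0 (interval 10.9 to 22.5). The calcium- or sodium-activated channels held 20.4 per megabase (5 of 8 genes), inward rectifiers 15.7 (8 of 14), voltage-gated pores 13.7 (15 of 29), two-pore channels 10.2 (7 of 14) and silent modifiers 7.41 (2 of 10). Only the intervals of the first, 19.1 to 30.2, and of the second, 14.9 to 27.4, lay wholly above the density of 13.4 over all genes. Each rested on 1 gene: without Kcnip4 the first, and without Kcnt2 the second at 14.3 (interval 9.28 to 21.2), included it. Among subfamilies with at least 4 genes, PDX1 was found at 4 of 4 Kcnmb, 3 of 4 Kcnip, 3 of 4 Kcnq, 6 of 8 Kcnh, 2 of 4 Kcnn, 2 of 5 Kcne, 1 of 4 Kcnc, 1 of 4 Kcng and 1 of 8 Kcna genes. The subfamilies were not matched for length. Their median spans ran from 5.75 kb (Kcne) and 11.0 kb (Kcna) to 180 kb (Kcnq) and 215 kb (Kcnip). PDX1 was found at 26.4% of all genes under 20 kb and at 85.9% of those over 100 kb. BMAL1, present at 14.0% of all genes, was found at 5 of 17 auxiliary genes, 5 of 29 voltage-gated pores, 3 of 10 silent modifiers, 3 of 8 calcium- or sodium-activated channels, 2 of 14 two-pore channels and 1 of 14 inward rectifiers. Its intervals in these classes overlapped widely. CLOCK was found at 1 to 3 genes of each class, and at 8.23% of all genes.

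**Figure D5:**
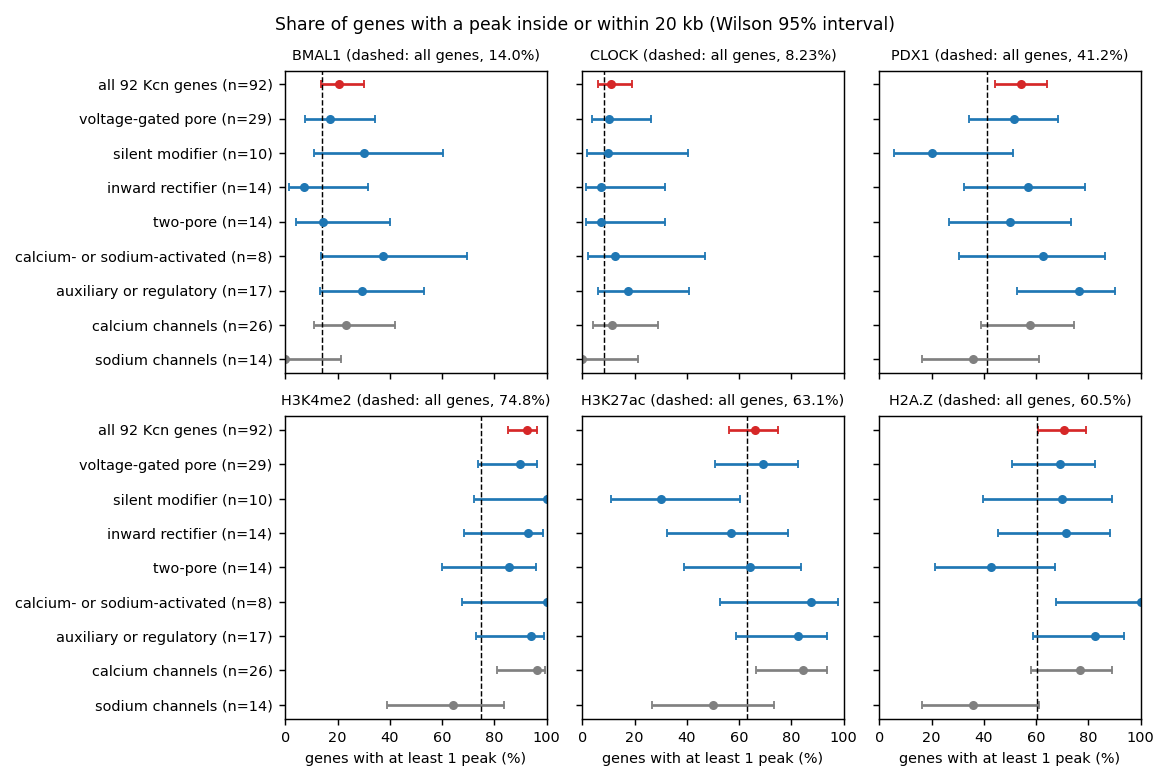
Share of genes with at least 1 peak inside or within 20 kb (horizontal axis, percent; lines are Wilson 95% intervals) in each list for the 92 potassium channel genes (red), their 6 classes (blue) and calcium and sodium channel genes (grey), with all protein-coding genes as a dashed line. Silent modifiers have H3K4me2 in 10 of 10 genes and H3K27ac in 3 of 10.

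Across the 6 classes the share of genes with H3K4me2 ran from 85.7% up to every gene of a class and that with H3K27ac from 30.0% to 87.5%. Over all genes the shares were 74.8% and 63.1%. The classes were not matched for length, with median spans from 17.5 kb (silent modifiers) to 121 kb (calcium- or sodium-activated). H3K27ac was found at 52.9% of all genes under 20 kb and at 83.2% of those over 100 kb. H3K4me2 was found at 10 of 10 silent modifiers, 8 of 8 calcium- or sodium-activated channels, 16 of 17 auxiliary genes, 13 of 14 inward rectifiers, 26 of 29 voltage-gated pores and 12 of 14 two-pore channels. H3K27ac was found at 3 of the 10 silent modifiers (30.0%, interval 10.8 to 60.3), namely Kcnf1, Kcng3 and Kcng4, and the 5 intervals near Kcng4 were all outside its span. It was found at 8 of 14 inward rectifiers, 9 of 14 two-pore channels, 20 of 29 voltage-gated pores, 14 of 17 auxiliary genes and 7 of 8 calcium- or sodium-activated channels. In all, 26 channel genes had H3K4me2 and no H3K27ac within 20 kb (28.3%), against 13.4% of all genes, and 7 of them were silent modifiers: all 3 Kcns genes, both Kcnv genes, Kcng1 and Kcng2. The others included Kcna3 and Kcna4, Kcnj2, Kcnj4, Kcnj5 and Kcnj8, Kcnk1 and Kcnk3, Kcnq5 and Kcnt1. Among genes of 20 to 100 kb the share was 14 of 35 (40.0%, against 13.8% of all genes of that length), among those under 20 kb 10 of 35 (28.6% against 13.5%) and among those over 100 kb 2 of 22 (9.09% against 11.4%).

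The widest acetylated sequence was found at Kcnip1, with 39606 bp in 18 intervals, followed by Kcnh1 with 31097 bp in 21, Kcnh6 with 22448 bp in 5, Kcnma1 with 19066 bp in 16 and Kcnmb2 with 17294 bp in 12. Relative to the size of its window Kcnh6 was first, with 33.2% of the window in H3K27ac against 2.56% over the windows of all genes. At Kcnh1 the promoter carried H3K4me2 and H2A.Z but not H3K27ac, and 19 of the 21 intervals lay inside the gene. The Kcnma1 promoter carried H2A.Z alone.

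A list of 10 potassium channels known from beta cells was taken from background knowledge. H3K4me2 was found at 10 of these 10, H3K27ac at 9, H2A.Z at 9, PDX1 at 6, BMAL1 at 3 and CLOCK at 1. Over all genes the shares were 74.8% for H3K4me2, 63.1% for H3K27ac, 60.5% for H2A.Z, 41.2% for PDX1, 14.0% for BMAL1 and 8.23% for CLOCK. The 10 genes are long, with a median span of 65.6 kb against 17.2 kb over all genes. PDX1 overlapped H3K27ac at 5 of the 10: Kcnk16, Kcnma1, Kcnn3, Kcnh6 and Kcnj6. The same was found at 18.0% of all genes, at 20.3% of those of 20 to 100 kb and at 49.1% of those over 100 kb. Kcnn2 had 4 PDX1 peaks (best score 25) and 2 BMAL1 peaks of score 13, none in H3K27ac, and 1 H3K27ac interval of 2381 bp. Kcnn1 had a BMAL1 peak of score 15 outside H3K27ac, and Kcnn4 had 2 H3K27ac intervals and no factor peak. Kcnk3, an acid-sensitive two-pore channel, was the 1 gene of the 10 without H3K27ac, and had 1 interval each of H3K4me2 and H2A.Z.

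Peaks in all 6 lists were found at 7 channel genes (7.61%, against 1.97% of all genes): Kcnc2, Kcnh1, Kcnip4, Kcnj9, Kcnk4, Kcnma1 and Kcnmb3. Of these 7, 4 span over 100 kb, where 18.2% of the channel genes and 7.12% of all genes had all 6. At 5 channel genes no list had a peak (5.43%, against 18.5% of all genes). These were the voltage-gated pores Kcna1, Kcna5 and Kcna6, which lie together between positions 126532551 and 126740834 of chromosome 6, and the two-pore channels Kcnk5 and Kcnk18. BMAL1 and CLOCK were both found at 8 channel genes (8.7% against 3.69%), though at Kcnc2, Kcnh1, Kcnip4, Kcnma1 and Kcnmb3 the peaks of the 2 factors did not overlap.

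A list of 18 genes that act beside potassium channels but lie outside the symbol rule (regulators such as Dpp6, Dpp10 and Abcc9, the Hcn channels and the subunits of the sodium-potassium pump) had H3K4me2 at 18, H3K27ac at 15, H2A.Z at 12, PDX1 at 8, BMAL1 at 7 and CLOCK at 3. Over all genes the shares were 74.8% for H3K4me2, 63.1% for H3K27ac, 60.5% for H2A.Z, 41.2% for PDX1, 14.0% for BMAL1 and 8.23% for CLOCK. The median span of the 18 genes was 25.2 kb, against 17.2 kb over all genes. Of the 72 PDX1 peaks at the 18 genes, 19 overlapped H3K27ac (26.4%, against 26.1% in the windows of all genes). Among 26 calcium channel genes PDX1 was found at 15 (57.7%, against 41.2% of all genes) with a density of 16.6 per megabase. That was near the 16.7 of the potassium channel genes and above the 13.4 of all genes. The calcium channel genes are longer, with a median span of 104 kb against 32.7 kb for the potassium channel genes, and were not matched for length. H3K27ac overlapped 38 of their 98 PDX1 peaks (38.8%) against 44 of 233 at potassium channel genes, a difference that was not tested. Among 14 sodium channel genes, of median span 103 kb, BMAL1 and CLOCK were found at 0, with an upper Wilson limit of 21.5%. PDX1 was found at 5 (35.7%, against 41.2% of all genes) and H3K27ac at 7 (50.0%, against 63.1%). Of all genes over 100 kb, 85.9% had PDX1 and 83.2% had H3K27ac.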

How the data were processed

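Beta-TC6 chromatin was precipitated for 6 targets, 1 library each. The submitters' processing notes name Bowtie 1.1.1, HOMER and mm10. A version for HOMER was not given in the sources used here. Per the file headers, the authors called BMAL1, CLOCK and PDX1 peaks at fixed widths (330, 204 and 234 bp), with at least 13 tags, 4-fold over input and over the surrounding 10 kb, and an FDR of 0.001, and called histone intervals at variable widths, 4-fold over input. One pooled input served BMAL1, CLOCK and H2A.Z and a second the other targets, as the headers give it (the labels of the H2A.Z sample differ from its header, which was followed). Normalized tag counts, a signal that the authors scaled with HOMER to 10000000 tags in each library, are quoted as deposited. The deposited score is the authors' own and ranks peaks within its list. The deposited fold over input, a ratio, served for 1 alternative filter. Depths were 12892080 (BMAL1), 17898856 (CLOCK), 19568242 (PDX1), 26678241 (H3K4me2), 13430083 (H3K27ac) and 18513695 tags (H2A.Z), which limits which sites could be called.

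Gene spans came from the RefSeq table for GRCm38.p6, which gives no strand or exons, so the position of peaks relative to exons was not determined. A peak counted for every gene whose span, extended by 20 kb, held its centre, and overlap meant at least 1 bp. Promoters and starts came from the RefSeq promoter table of the same build. Shares have Wilson 95% intervals and densities exact Poisson 95% intervals. No test was made. The counting was tested on simulated data. Genes were named when a factor peak overlapped H3K27ac, when they had 1 of the 5 highest scores in a factor list or of the 5 largest summed H3K27ac widths, when they were on the beta-cell channel list, or when no list had a peak; others are examples chosen after their values were seen. Some genes of the family count in every total but are not reported here one by one. The members and lists were chosen with earlier results of these data known. Alternatives were other windows, thresholds, overlap rules and assignment of a peak to the nearest gene. Values were computed with pandas 2.3.3, SciPy 1.17.1 and NumPy 2.4.6 under Python 3.11.15 and drawn with matplotlib 3.10.9.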

Additional observations from a re-analysis of the deposited data

How the results depend on the processing

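Of 51 alternatives to the 9 counts of channel genes, 29 stayed within 1.5 times the count reported. With the gene span alone as window the counts were 9 for BMAL1, 5 for CLOCK, 30 for PDX1, 39 for H3K27ac and 38 for H2A.Z, and in H3K27ac 1 for BMAL1, 4 for CLOCK and 14 for PDX1. With 50 kb around the span they were 19 for CLOCK and, in H3K27ac, 9 for BMAL1 and 15 for CLOCK. The upper 50% of each list by score gave 6 for CLOCK, 33 for PDX1 and 4 for CLOCK in H3K27ac. Counting a peak only for the nearest gene gave 5 for CLOCK and, in H3K27ac, 1 for BMAL1 and 4 for CLOCK. A fold over input of at least 8 left 28 genes with H3K4me2, 34 with H2A.Z and, in H3K27ac with that fold in both lists, 2 with BMAL1, 2 with CLOCK and 12 with PDX1. Each of these windows or filters admits fewer or more peaks by construction. The densities without Kcnip4, without Kcnt2 or over the span alone, and the count of promoters with H3K27ac within 1 kb of a start, were alternatives chosen after seeing the data; of these, the PDX1 density of the auxiliary class moved from 24.2 to 16.0 per megabase without Kcnip4 and that of the calcium- or sodium-activated class from 20.4 to 14.3 without Kcnt2. No paired analysis was possible because each target had 1 library. Of the 31 BMAL1 peaks at channel genes, 18 had scores of 13 or 14 (58.1%, against 65.3% in the windows of all genes). Scores so near the threshold of 13 leave little margin over what depth allows to be called.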
